A study of Mus musculus with 3 samples.

Results

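The *Trem2*-high macrophages (Mφ) of the adult mouse lacrimal gland (LG, the exocrine gland that secretes the aqueous part of tears) numbered 334 of the 19592 cells kept in 3 single-cell RNA libraries. They were chosen by measured values, in counts of UMIs (unique molecular identifiers, which count an RNA molecule once however often it was read). A cell needed more than 500 UMIs, more than 200 genes, less than 15% mitochondrial UMIs, at least 3 UMIs in all of the Mφ genes *Csf1r*, *Adgre1*, *Cd14*, *Lyz2*, *C1qa* and *C1qb*, and at least 2 UMIs of *Trem2* and *Gpnmb* together. It could hold at most 2 UMIs of *Mrc1*, *Pf4*, *F13a1* and *Cd163*, which mark M2-like resident Mφ, and none of the dendritic cell genes *Cd209a* and *Fscn1*, the epithelial gene *Epcam* or the fibroblast gene *Col1a1*. These 16 genes are described without a test.

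The study profiled whole LGs of C57BL/6J mice at 2 months of age, with 1 female and 2 male libraries, each a pool of 6 glands from 3 animals. Single animals could therefore not be told apart. The p-values weigh a difference between cell groups within a library against an estimate of how far it varies over these 3 libraries. That estimate borrows from all genes tested, since 3 libraries say little about the spread of a single gene. The female library was sequenced apart from the male libraries, so sex cannot be told apart from sequencing core and day, and no test of sex was made. Values of the 3 libraries are given in the order female, male 1, male 2. Of 9737, 6422 and 6899 called barcodes, 8298, 5582 and 5712 were kept. Between 12 and 18 barcodes were shared by each pair of libraries. RNA of acinar secretory products was free in the suspension: tear-product genes took 68.5 to 79.3% of the UMIs in uncalled barcodes of 10 to 100 UMIs.

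TREM2 is a surface receptor of Mφ, microglia and osteoclasts that binds lipids, lipoproteins and cell debris and signals through the adaptor TYROBP. In fat tissue, atherosclerotic plaque and injured brain it is known for a state of lipid-loaded Mφ with high lysosomal enzymes, lipid carriers and *Gpnmb*, a glycoprotein of lysosomes and melanosomes. Many lysosomal genes carry the E-box TCACGTG close to their start, the letters read by the MITF and TFE family of transcription factors.

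On GRCm38, *Trem2* lies at chr17:48346401-48354147 on the plus strand and *Gpnmb* at chr6:49036546-49070929 on the plus strand, both protein-coding. Promoter windows from 250 bases before to 50 bases after the start were taken from RefSeq (GRCm38.p6) and searched on both strands for TCACGTG. Of 27025 genes with a window, 1160 held a match (4.29%). Of the 32 genes in a list of lysosomal enzymes, activators and membrane proteins, 25 had a window and 7 held a match (28.0%), as did 4 of 11 genes of the V-ATPase, the proton pump that acidifies lysosomes (36.4%). The windows of *Trem2* at chr17:48346151-48346450 and of *Gpnmb* at chr6:49036268-49036567 held no match, which says only that these letters were not there. Of the 14 lysosomal genes that were higher in *Trem2*-high Mφ than in *Trem2*-low Mφ, 11 had a window and 4 held a match, namely *Ctsd* at chr7:142387778-142388077 on the minus strand, *Ctsa* at chr2:164833523-164833822 on the plus strand, *Lgmn* at chr12:102439043-102439342 on the minus strand and *Lamp1* at chr8:13158911-13159210 on the plus strand. They are printed 5′ to 3′ because they hold the letters among the lysosomal genes that rose, with the matches in capitals (a match on the other strand reads CACGTGA, and overlapping matches on both strands read TCACGTGA).
Ctsd: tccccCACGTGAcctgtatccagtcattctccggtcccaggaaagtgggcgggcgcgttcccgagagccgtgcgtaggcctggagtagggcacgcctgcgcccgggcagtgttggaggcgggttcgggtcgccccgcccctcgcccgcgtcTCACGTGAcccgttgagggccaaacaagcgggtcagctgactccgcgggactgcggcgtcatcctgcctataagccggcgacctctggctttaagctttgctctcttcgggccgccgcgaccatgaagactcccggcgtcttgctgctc
Ctsa: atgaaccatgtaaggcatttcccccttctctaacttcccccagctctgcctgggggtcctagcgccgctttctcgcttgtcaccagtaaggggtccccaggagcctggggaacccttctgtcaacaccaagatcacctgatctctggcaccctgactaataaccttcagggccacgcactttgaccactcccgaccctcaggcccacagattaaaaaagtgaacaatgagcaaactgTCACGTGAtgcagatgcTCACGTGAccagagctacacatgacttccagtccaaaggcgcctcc
Lgmn: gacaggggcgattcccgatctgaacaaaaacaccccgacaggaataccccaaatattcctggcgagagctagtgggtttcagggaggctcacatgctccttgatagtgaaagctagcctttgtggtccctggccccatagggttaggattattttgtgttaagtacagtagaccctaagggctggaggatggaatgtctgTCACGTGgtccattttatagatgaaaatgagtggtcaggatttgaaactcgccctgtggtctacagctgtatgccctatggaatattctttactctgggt
Lamp1: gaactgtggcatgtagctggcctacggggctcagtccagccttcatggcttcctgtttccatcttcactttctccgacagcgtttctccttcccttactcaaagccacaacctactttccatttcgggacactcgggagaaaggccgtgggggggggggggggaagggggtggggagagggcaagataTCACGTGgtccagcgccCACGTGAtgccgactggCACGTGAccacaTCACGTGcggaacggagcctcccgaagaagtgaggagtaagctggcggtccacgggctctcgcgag
The matched places numbered 2, 2, 1 and 4, in that order. A match is a description of the window and was not shown here to be a binding site.

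*Trem2*-high Mφ made up 219 of 8298 kept cells in the female library (2.64%, exact 95% binomial interval 2.30 to 3.01), 46 of 5582 in male library 1 (0.824%, 0.604 to 1.10) and 69 of 5712 in male library 2 (1.21%, 0.941 to 1.53). Of the cells that met the Mφ limits of the rule, before any limit on *Trem2* or on resident genes, they were 15.1, 6.78 and 11.3% of 1453, 678 and 611 cells. The female share of kept cells lay above both male shares, with intervals apart, while its share of Mφ had an interval (13.3 to 17.0) that overlapped that of male library 2 (8.89 to 14.1). These intervals cover counting error only. Female cells were also deeper (medians of 3302, 1891 and 1879 UMIs over kept cells), and the rule sets a fixed number of UMIs, whose part in the shares was not tested. Resident Mφ, with at least 3 UMIs of the resident genes and at most 1 of *Trem2* and *Gpnmb*, numbered 41, 48 and 15. Only 17 cells met both the *Trem2* and the resident limit, and they entered no comparison.

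The members sat close to the threshold in every library. Exactly 2 UMIs of *Trem2* and *Gpnmb* were found in 113, 23 and 35 members, or 171 of 334, while 476 cells lay just outside with 1 UMI. The highest sum was 13 UMIs. *Trem2* alone brought in 268 members, *Gpnmb* alone 9, and 57 had UMIs of both genes. No UMI of the 4 resident genes was found in 274 members (82.0%), and at least 2 UMIs of *C1qa* and *C1qb* were found in 329.

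Members were somewhat deeper than other Mφ. Their median was 4279, 1944.5 and 1779 UMIs per cell, against 3461.5, 1809 and 1427.5 in *Trem2*-low Mφ (the same limits, with at most 1 UMI of *Trem2* and *Gpnmb* and at least 2 of *C1qa* and *C1qb*) and 2770, 1665.5 and 1621 in resident Mφ. A doublet caller marked 3 of the 334 members, all in the female library. The same caller marked 50, 27 and 36 *Trem2*-low Mφ (4.34, 5.08 and 7.69%). The share of tear-product UMIs in a member was 17.9, 38.0 and 31.7% (medians), below the 23.2, 45.7 and 43.1% of *Trem2*-low Mφ, so members also held less of the RNA that was free in the suspension. Of the summed UMIs, which the tests and CPM below use, the shares were 21.2, 39.9 and 36.1% against 28.2, 48.2 and 56.3%. The deepest member had 14000, 4851 and 6075 UMIs, and the deepest *Trem2*-low cell 60394, 17044 and 58135.

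Across the cell classes of the gland, *Trem2* and *Gpnmb* had different reach. Levels are UMIs of the gene per 1000000 UMIs of the class (CPM). They are tag counts, so levels of different genes cannot be ranked. *Trem2* stood at 649, 957 and 1052 CPM in the members of the 3 libraries, and at 65.0, 87.5 and 80.3 CPM in *Trem2*-low Mφ, as the rule fixes. It was at most 2.19 CPM in fibroblast-like, endothelial-like, lymphoid-like and epithelial-like cells, and 0 to 14.7 CPM in free RNA. Members held 895 of the 1578 *Trem2* UMIs of all kept cells (56.7%), and cells within the Mφ limits held 89.7%.

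*Gpnmb* varied more between the libraries, at 44.1 CPM in the female members and 426 and 537 CPM in the male members. Members held 158 of its 407 UMIs (38.8%), while fibroblast-like cells held 44.0%, at 19.8 to 24.4 CPM. In the female library 66.8% of *Gpnmb* UMIs lay in fibroblast-like cells and 23.0% in members, and in male library 2 these shares were 15.0 and 60.0%. A *Gpnmb* UMI was seen in 15 of 219 female members (6.85%), 22 of 46 members of male library 1 (47.8%) and 29 of 69 of male library 2 (42.0%). Thinned to 1000 UMIs per cell, with no member left out, the shares were 3.20, 28.3 and 31.9%. Members were chosen before thinning, by a rule that reads *Gpnmb*. In members with exactly 2 UMIs, *Trem2* and *Gpnmb* together stood at 483, 1023 and 1136 CPM, so the deeper female cells entered at a lower level. Thinning does not level that choice. In lymphoid-like cells, which should lack the gene, it was seen in 1 of 431 female cells at a median depth of 2500 UMIs. No UMI was seen in 52 and 86 such cells of the male libraries, which allows shares of up to 5.77 and 3.49%.

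**Figure D1:**
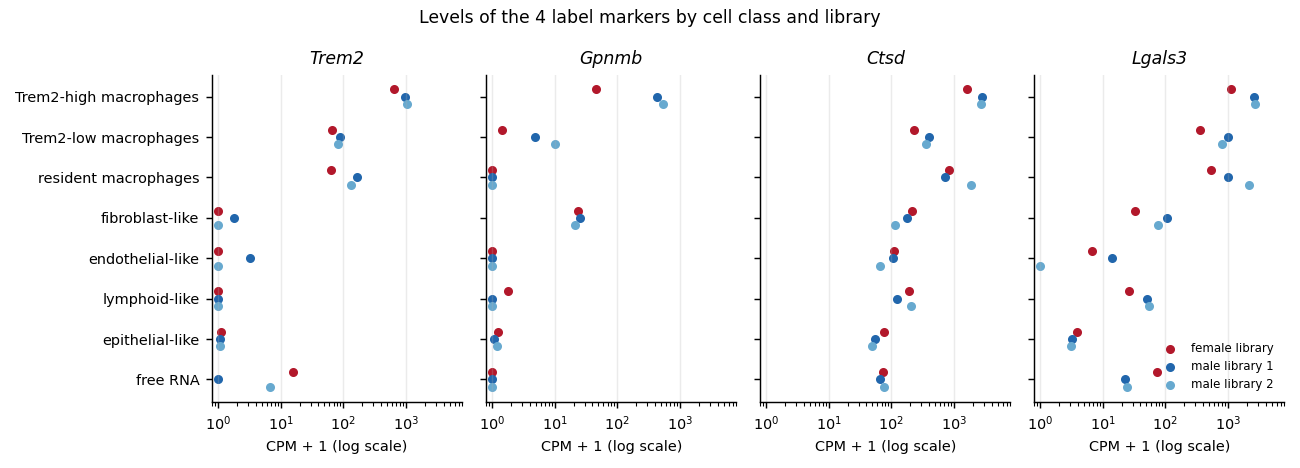
Levels of *Trem2*, *Gpnmb*, *Ctsd* and *Lgals3* (CPM of summed UMIs plus 1, log axis) by cell class and in free RNA, with 1 point per library. *Trem2* reached 649 to 1052 CPM in *Trem2*-high Mφ and *Gpnmb* 44.1 to 537 CPM, with the female library lowest for both.

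The label was checked with *Ctsd* and *Lgals3*, which the rule did not read. They encode cathepsin D, an aspartic protease of lysosomes, and galectin 3, a sugar-binding protein of activated phagocytes, and the study itself named both as markers of these cells from the same libraries. *Ctsd* (chr7:142375911-142388038, minus strand) was detected in 81.7, 89.1 and 87.0% of members and *Lgals3* (chr14:47367751-47386160, plus strand) in 75.3, 95.7 and 89.9%. In lymphoid-like cells of lower median depth (2500, 1432.5 and 1130.5 UMIs) the shares were 36.2, 17.3 and 24.4% for *Ctsd* and 3 to 28 cells, at most 6.98%, for *Lgals3*. In *Trem2*-low Mφ, also of lower median depth, *Ctsd* was detected in 36.9, 29.6 and 31.0% and *Lgals3* in 53.6, 64.0 and 60.7%. In resident Mφ, *Ctsd* was found in 26 of 41, 24 of 48 and 8 of 15 cells. *Lgals3* was found there in 18 of 41, 25 of 48 and 7 of 15. Detection of either gene was therefore not specific to members, although the shares were highest in members in each library. Both genes were found together in 245 of 334 members (73.4%), and neither in 28. Single members ranged widely: the median was 4, 4 and 3 *Ctsd* UMIs per member in the 3 libraries, and the highest member had 155, 42 and 35.

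The level of *Ctsd* climbed with the sum of *Trem2* and *Gpnmb* UMIs, on both sides of the threshold. From 0 through 1, 2 and 3 to 4 or more UMIs it was 185, 337, 733, 961 and 3323 CPM in the female library. In male library 1 the steps were 262, 931, 1668, 3094 and 4858 CPM, and in male library 2 they were 227, 845, 1428, 2920 and 4236 CPM. Each step was higher than the one before in each library. The median UMIs per cell were also higher at the last step than at the first, at 5062 against 3378, 2227.5 against 1728 and 1934 against 1384. At 2 UMIs the medians were 3842, 1724 and 1667, against 3378, 1728 and 1384 at 0 UMIs. The part of depth in the trend was not tested.

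The summed lysosome list followed the same order, while MHC class II genes, which present antigen to T cells, ran the other way in the outer steps. The lysosome list took 13074, 8631 and 7058 CPM in cells with 0 UMIs and 29847, 26520 and 23884 CPM in cells with 4 or more. Summed MHC class II RNA was 27700, 19871 and 15598 CPM at 0 UMIs and 15751, 13728 and 9751 CPM at 4 or more, although in male library 2 it was higher at 2 UMIs (19895 CPM) than at 0. Tear-product RNA was also lower at the upper end, from 287748 to 151715 CPM in the female library, from 489181 to 340212 CPM in male library 1 and from 569309 to 396515 CPM in male library 2.

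**Figure D2:**
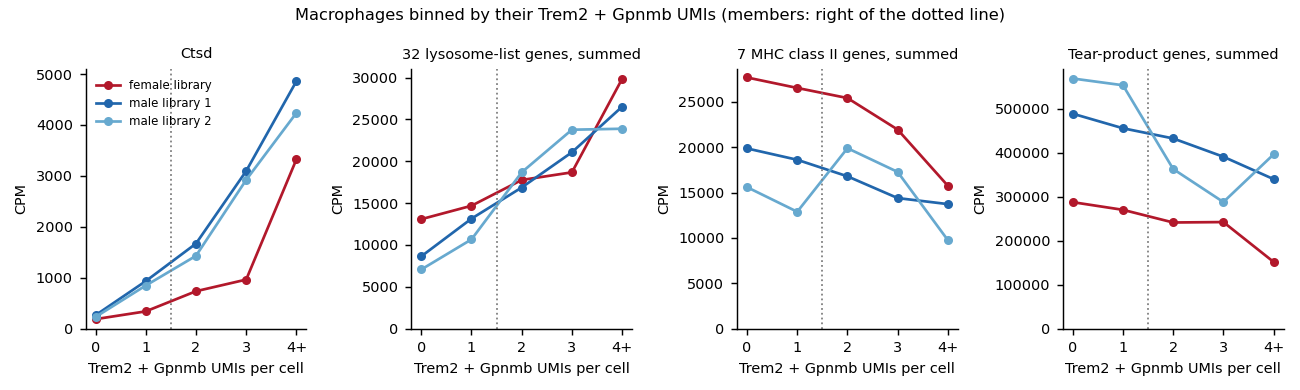
Levels (CPM) of *Ctsd* and of the summed lysosome, MHC class II and tear-product lists in cells within the Mφ limits, by the number of *Trem2* and *Gpnmb* UMIs (0, 1, 2, 3, 4 or more), with 1 line per library. *Ctsd* and the lysosome list rise over every step in all 3 libraries, and MHC class II is lowest at 4 or more UMIs.

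What else set these cells apart from their neighbours was tested against *Trem2*-low Mφ, of which there were 1152, 531 and 468. UMIs were summed per library and arm, and the 16 rule genes were left out of the tests. *Trem2*-high Mφ had more RNA of lysosomal proteases, lipid carriers and *Igf1*, and less of MHC class II, *Il1b* and chemokines. Of 5448 genes tested with edgeR, 130 were called higher (2.39%) and 186 lower (3.41%) at an adjusted p under 0.05, with the library as a block. The genes called lower included 29 tear-product and 42 ribosomal protein genes. Scaled to total UMIs in place of TMM (edgeR's trimmed mean), the median log2 difference of all genes moved up by 0.33 and the calls became 249 higher and 16 lower. Directions below are therefore relative to the bulk of genes. There were 199 calls without the female library, 134 without male library 1 and 56 without male library 2. Without the library block 0 genes were called in edgeR (239 at an unadjusted p under 0.05).

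The clearest difference was *Ctsd*, at 1627, 2839 and 2702 CPM in *Trem2*-high Mφ and 226, 405 and 357 CPM in *Trem2*-low Mφ. The groups did not overlap (log2 difference 2.41 ± 0.13 SE, adjusted p = 9.14e-71). *Ctsb*, a cysteine protease of lysosomes, stood at 2163, 2434 and 2575 against 770, 746 and 668 CPM, again apart (1.25 ± 0.13, adjusted p = 1.97e-19). *Psap*, the precursor of the saposins that help to break down sphingolipids, was at 2139, 2808 and 2635 against 1075, 888 and 705 CPM (1.04 ± 0.13, adjusted p = 2.53e-13). *Grn*, which encodes the lysosomal protein progranulin, was at 411, 458 and 582 against 169, 145 and 192 CPM (1.04 ± 0.15, adjusted p = 6.98e-10).

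Of the 30 lysosomal genes tested, 14 were higher, 0 were lower and 16 did not pass, with a median log2 difference of 0.63 against -0.03 over all genes. Besides these 4, they included *Ctsz*, *Ctsa*, *Lgmn*, *Cstb*, *Cd63*, *Cd68*, *Lamp1*, *Hexa* and *Tpp1*. Among the lysosomal genes called higher, the others with a TCACGTG window rose less than *Ctsd*. *Ctsa*, a protective carboxypeptidase, rose by 0.86 ± 0.16 (adjusted p = 7.88e-06), *Lgmn*, an asparaginyl protease, by 0.72 ± 0.14 (adjusted p = 8.73e-06) and *Lamp1*, a lysosomal membrane protein, by 0.73 ± 0.15 (adjusted p = 3.76e-05). In each of them both groups stayed apart in all 3 libraries. Of the 7 lysosomal genes with a match, *Gla* and *Glb1* did not pass and *Mcoln1* was not tested. Over all genes called higher that had a promoter window, 15 of 111 held the letters (13.5%). The V-ATPase was raised in 3 of 15 subunits (median 0.33), namely *Atp6v1c1*, *Atp6v1a* and *Atp6v0c*, each of which lost its call with any 1 library left out. Without male library 2 the lysosome calls fell to 4, and with only the members that lacked *Gpnmb* to 3. Scaled to total UMIs they were 20.

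Genes of lipid handling were the second group. *Fabp5*, a fatty acid-binding protein (chr3:10012548-10016607, plus strand), was at 98.0, 842 and 1187 CPM in *Trem2*-high Mφ and 11.8, 127 and 99.9 CPM in *Trem2*-low Mφ. The female members lay below the *Trem2*-low Mφ of both male libraries, so the groups overlapped between libraries, but within each library the members were higher (2.65 ± 0.16, adjusted p = 6.92e-54). *Apoc2*, the activator of lipoprotein lipase, rose by 1.92 ± 0.27 (adjusted p = 5.99e-10), and *Cd36*, a scavenger receptor for oxidized lipoproteins and fatty acids, by 1.29 ± 0.20 (adjusted p = 3.01e-08). Apolipoprotein E RNA (*Apoe*) was abundant in both groups and rose by 0.76 ± 0.14 (adjusted p = 3.88e-06), and *Abca1*, which exports cholesterol, by 0.96 ± 0.17 (adjusted p = 1.43e-06). Of 18 tested genes of this list 12 were higher (*Fabp5*, *Psap*, *Apoc2*, *Cd36*, *Abca1*, *Apoe*, *Lipa*, *Pltp*, *Plin2*, *Lpl*, *Abcg1* and *Nceh1*), 1 was lower (*Acsl1*) and 5 did not pass, with a median of 0.82.

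Markers of lipid-associated Mφ of other tissues were higher in 8 of 12 tested cases and lower in 0, with a median of 0.99, and 4 did not pass. This count is not separate from the earlier ones: *Ctsd* and *Cd63* were also in the lysosome list and *Fabp5* and *Lpl* in lipid handling. *Igf1* was also in a list of matrix genes and growth factors given below, and *Ctsd* and *Lgals3* were the label markers. *Syngr1*, a synaptic vesicle protein, was at 30.4, 156 and 149 against 2.31, 8.56 and 18.5 CPM (3.07 ± 0.34, adjusted p = 5.97e-16). *Lgals3* was at 1102, 2631 and 2702 against 364, 1006 and 801 CPM (1.13 ± 0.13, adjusted p = 7.04e-16). *Spp1*, which encodes osteopontin, passed with few UMIs, at 32.4, 72.8 and 74.6 against 8.10, 36.1 and 28.8 CPM (1.19 ± 0.31, adjusted p = 0.00385). It lost its call without the female library and without male library 2. *Cst7*, *Csf1* and *Atp6v0d2* had too few UMIs to be tested.

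*Igf1*, a growth factor that Mφ release in repair, was at 132, 177 and 194 CPM in *Trem2*-high Mφ and 26.4, 30.4 and 41.2 CPM in *Trem2*-low Mφ, without overlap (1.96 ± 0.20, adjusted p = 7.98e-20). Against resident Mφ it was not called. *Gdf15*, a stress-induced cytokine, rose by 1.18 ± 0.14 (adjusted p = 2.55e-13) and *Pla2g7*, a secreted phospholipase that degrades platelet-activating factor, by 1.68 ± 0.19 (adjusted p = 1.19e-15). *Timp2*, an inhibitor of matrix metalloproteinases, was also higher (1.04 ± 0.16, adjusted p = 4.44e-09), whereas *Mmp13* was lower (fell by 0.90, adjusted p = 0.0116). *Mmp13* had 45, 1 and 1 UMIs in members and lost its call without male library 1 and without male library 2. Over this list of matrix genes and growth factors 3 of 13 were higher and 1 lower, and the other 9 did not pass. Of 5 tested resident Mφ genes outside the rule, 3 were higher (*Igf1*, *Stab1* and *Selenop*) and 0 lower.

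Uptake receptors moved in part. *Lrp1*, an endocytic receptor for lipoproteins and apoptotic cells, was at 149, 114 and 112 against 41.4, 31.4 and 21.6 CPM (1.59 ± 0.20, adjusted p = 8.46e-13). *Mertk*, which recognizes apoptotic cells through bridging proteins, rose from fewer UMIs (1.58 ± 0.32, adjusted p = 3.76e-05). With *Cd36* and *Stab1* these were 4 of 20 phagocytosis genes called higher, while 0 were lower and 16 did not pass (median 0.20). The C-type lectins *Clec4d* (2.14 ± 0.30, adjusted p = 1.74e-10) and *Clec4n* (1.72 ± 0.35, adjusted p = 5.40e-05) were among the largest rises.

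Some genes of iron and glucose handling were also higher. The ferritin light chain *Ftl1* was at 7443, 13426 and 13033 against 3390, 5326 and 4319 CPM (0.89 ± 0.14, adjusted p = 8.72e-09), and *Blvrb*, a biliverdin reductase, rose by 1.06 ± 0.17 (adjusted p = 5.11e-08). With *Fth1* and the iron transporter *Slc11a1*, 4 of 9 genes of iron and heme handling were higher (median 0.80). *Blvrb* kept its call with each library left out. *Ftl1* lost it without male library 1 and without male library 2, and *Fth1* without any 1 of the libraries, so that 2, 2 and 1 calls were left without the female library, male library 1 or male library 2. Of 14 glycolysis genes *Pkm*, *Pgam1* and *Aldoa* were higher, with 0 lower, and without male library 1 there was 1 such call and without either of the others 0. Oxidative phosphorylation had 0 of 77 genes called in either direction in edgeR (median 0.10).

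**Figure D3:**
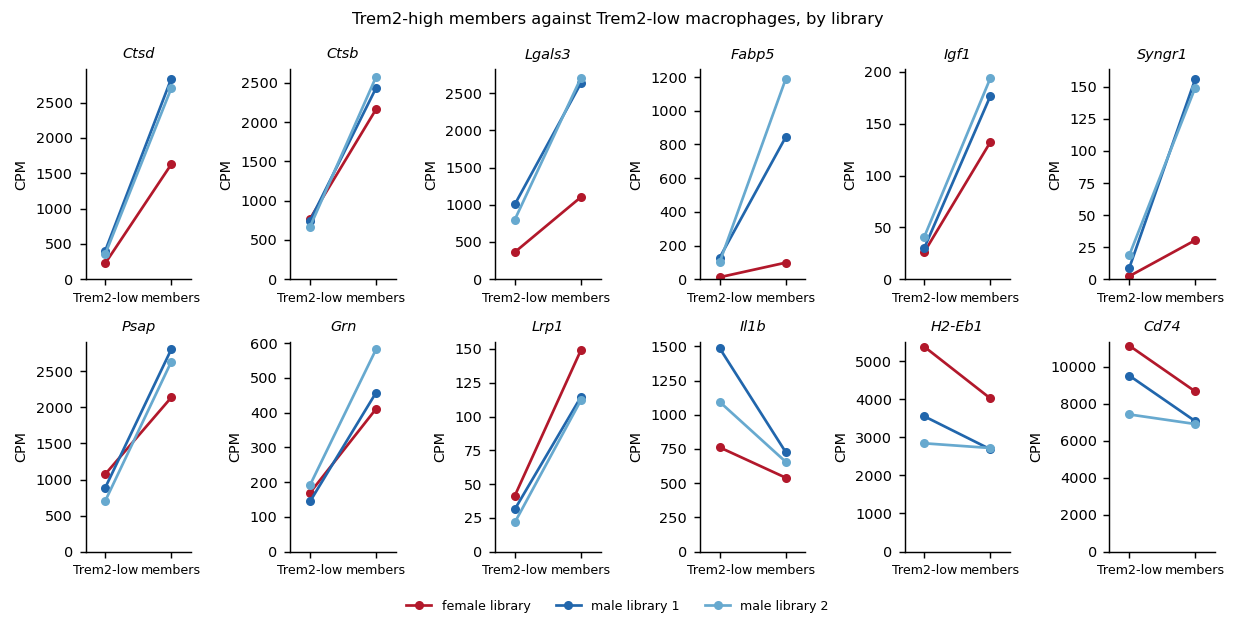
Levels (CPM, axes from 0) of 12 named genes in *Trem2*-high and *Trem2*-low Mφ, with a line joining both groups of each of the 3 libraries. *Ctsd*, *Igf1* and *Lrp1* are higher and *Il1b* is lower in *Trem2*-high Mφ in every library.

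The inflammatory genes pointed mostly the other way. *Il1b*, the proinflammatory cytokine interleukin 1β, was at 540, 728 and 657 CPM in *Trem2*-high Mφ and 762, 1487 and 1095 CPM in *Trem2*-low Mφ, without overlap (log2 difference -1.15 ± 0.14, adjusted p = 1.98e-14). *Il1rn*, its receptor antagonist, was higher (0.89 ± 0.23, adjusted p = 0.0039), but lost its call with any 1 library left out. The chemokine *Ccl3* was lower in each library, at 4674, 1966 and 1806 against 5153, 3375 and 2779 CPM (-0.94 ± 0.14, adjusted p = 9.56e-10), and so was *Ccl4* (-0.81 ± 0.14, adjusted p = 4.41e-07). Of 18 inflammatory genes 2 were higher (*Il1rn* and *Clec4e*), 5 lower (*Il1b*, *Ccl3*, *Ccl4*, *Cxcl10* and *Il12b*) and 11 did not pass, with a median of -0.23. With total-UMI scaling the list median turned to 0.19 beside 0.30 over all genes, with 4 higher and 1 lower, and *Ccl3* and *Ccl4* no longer passed. These 2 chemokines also lost their calls without male library 1 and without male library 2.

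MHC class II had 6 of 7 genes called lower, 0 higher and a median of -0.67. *H2-Eb1* was at 4018, 2683 and 2717 against 5373, 3548 and 2841 CPM (-0.75 ± 0.13, adjusted p = 1.39e-06), and *Cd74*, the invariant chain that escorts class II molecules, at 8669, 7062 and 6905 against 11150, 9528 and 7424 CPM (-0.76 ± 0.14, adjusted p = 2.49e-06). Both were lower within each library, by less in male library 2, although the groups overlapped between libraries. The CPM of *H2-Ab1* and *H2-Aa* was higher in the members of male library 2, and they were lower there only after TMM scaling. Scaled to total UMIs 0 of 7 were called in edgeR (median -0.28, against 0.30 over all genes), and without male library 1 or without male library 2 there was 1 call each.

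Tear-product genes fell together, with 29 of 35 lower and a median of -0.89, as did 42 of 82 ribosomal protein genes (median -0.39). With total-UMI scaling 2 tear products and 0 ribosomal genes were called lower in edgeR, and the ribosomal median turned to 0.05. Genes of the response to tissue dissociation were lower in 8 of 18 cases and higher in 0, led by the heat shock genes *Hspa1b* (-1.27 ± 0.16, adjusted p = 1.79e-12) and *Hspa1a* (-1.20 ± 0.15, adjusted p = 1.92e-12), and with total-UMI scaling in 2. These shifts ran beside the differences in inflammatory and MHC class II genes, and their part in them was not tested.

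Of 14 tested genes of TREM2 signalling 0 were called in either direction in edgeR (median 0.02). *Tyrobp*, the adaptor of TREM2, was at 1808, 1695 and 1560 against 1142, 1021 and 724 CPM, apart in every library, but missed the threshold (0.38 ± 0.13, adjusted p = 0.0549). *Malt1*, part of the CARD9 complex, differed by -0.16 ± 0.17 (adjusted p = 0.818). The transcription factors *Id2* (0.74 ± 0.15, adjusted p = 9.30e-05) and *Bhlhe41* (1.29 ± 0.34, adjusted p = 0.00528) were higher and *Runx1* lower (-0.74 ± 0.19, adjusted p = 0.00451), and the other 13 of 16 tested did not pass. *Runx1* lost its call with any 1 library left out and *Id2* without male library 2. *Bhlhe41* lost it without male library 1 and without male library 2.

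Interferon-stimulated genes had 0 of 12 called in either direction in edgeR, with *Ifit2* at -0.31 ± 0.16 (adjusted p = 0.327) and *Isg15* at -0.16 ± 0.14 (adjusted p = 0.717). Proliferation genes had 0 of 7, with *Hmgb2* at -0.50 ± 0.18 (adjusted p = 0.0726) and *Tubb5* at 0.12 ± 0.17 (adjusted p = 0.873). A p above the threshold does not show that the groups were alike.

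**Figure D4:**
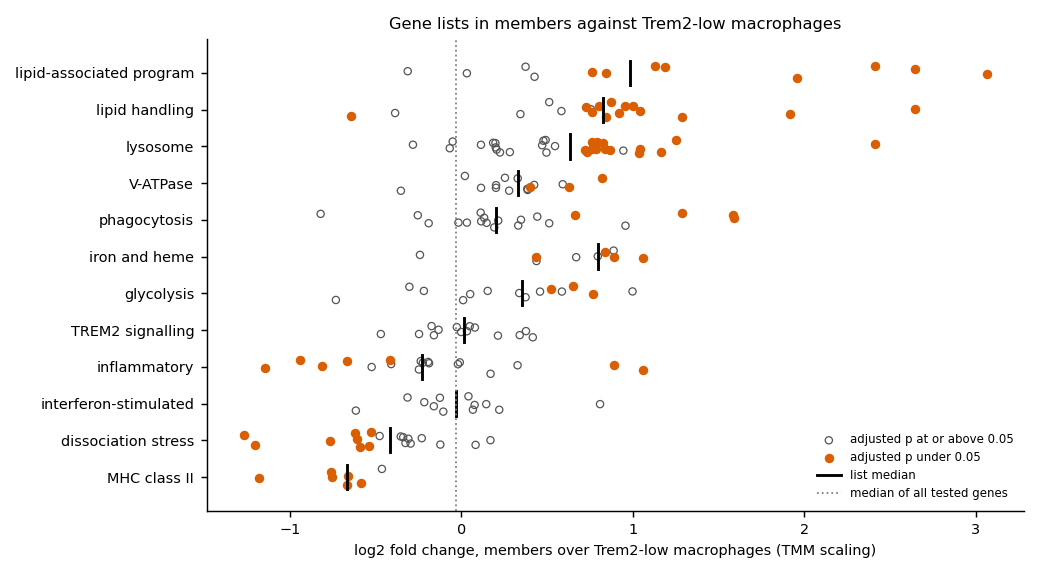
Log2 differences between *Trem2*-high and *Trem2*-low Mφ (TMM scaling) for the tested genes of 12 lists, with 1 point per gene, filled at an adjusted p under 0.05, a bar at the list median and a dotted line at the median of all tested genes. The lysosome list has 14 of 30 genes higher, and MHC class II 6 of 7 lower.

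Markers of other cells were looked at beside these results. Summed neutrophil markers were at 29.9 to 41.6 CPM in *Trem2*-high and 10.3 to 20.8 CPM in *Trem2*-low Mφ, but *S100a8*, *S100a9*, *Retnlg* and *Cxcr2* were at 0 in every member. Monocyte markers were at 122 to 208 against 109 to 139 CPM, with 5 of 10 at 0 in members, among them *Plac8*, *Chil3*, *Vcan* and *Ace*. Of the 5 monocyte markers that could be tested, *Clec4e* and *Ly6c2*, a marker of classical monocytes, were called higher and *Spn*, of non-classical monocytes, lower. Lymphoid markers were at 54.9 to 142 against 32.3 to 44.4 CPM, and *Cd3d*, *Cd3e* and *Cd3g* were at 0. Fibroblast markers were lower in members (7.46 to 25.5 against 40.2 to 132 CPM), while the ranges of endothelial (7.46 to 17.6 against 15.2 to 63.4 CPM) and dendritic markers (7.46 to 31.2 against 28.8 to 38.4 CPM) overlapped. Epithelial markers were at 223 to 489 against 306 to 658 CPM, and of 6 tested 3 were called lower (*Lpo*, *Krt18* and *Pigr*) and 0 higher, with a median of -0.98. With total-UMI scaling 0 of them were called in edgeR (median -0.57). The ranges of B and plasma cell markers (7.46 to 20.8 against 5.71 to 105 CPM) and mast cell markers (0 to 1.96 against 1.03 to 7.63 CPM) overlapped. The fibroblast genes *Dcn* (-2.10 ± 0.41, adjusted p = 2.07e-05) and *Sparc* (-2.53 ± 0.57, adjusted p = 0.000391) and the monocyte marker *Spn* (-2.11 ± 0.44, adjusted p = 9.36e-05) were among the largest falls. The part of other cells in the results was not tested.

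Against resident Mφ, the members that are compared are the same, so both comparisons share them. Here *Trem2*-high Mφ had more inflammatory RNA and far less of resident Mφ genes that the rule did not read. Of 966 genes tested 73 were called higher (7.56%) and 69 lower (7.14%), and without male library 2 there were 17 and 19. The resident arm was small, with 128626, 83377 and 23074 UMIs.

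*Ccl8*, a monocyte chemokine, was at 2.94, 41.6 and 29.9 CPM in *Trem2*-high Mφ and 373, 2291 and 3337 CPM in resident Mφ (log2 difference -6.51 ± 0.29, adjusted p = 1.40e-16). *Maf*, a transcription factor of resident Mφ, was at 127, 41.6 and 74.6 against 777, 576 and 433 CPM (-2.88 ± 0.31, adjusted p = 6.99e-08), and *Selenop*, a selenium carrier, at 654, 354 and 328 against 1843, 1163 and 1213 CPM (-1.70 ± 0.16, adjusted p = 8.48e-09). None of these groups overlapped. The lectin *Mgl2* (-5.44 ± 0.86, adjusted p = 2.50e-05) and *Gas6*, a ligand of MERTK (-3.70 ± 0.90, adjusted p = 0.00404), were lower too. Of 6 tested resident genes outside the rule 5 were lower and 0 higher, and *Igf1* did not pass.

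*Il1b*, which was lower than in *Trem2*-low Mφ, was higher than in resident Mφ, at 540, 728 and 657 against 132, 156 and 43.3 CPM (2.19 ± 0.30, adjusted p = 3.25e-06). *Ccl4* (1.26 ± 0.12, adjusted p = 6.17e-09), *Ccl3* (1.19 ± 0.14, adjusted p = 1.38e-07) and *Cxcl2* (1.11 ± 0.13, adjusted p = 1.28e-07), all chemokines, and *Nfkbia*, the inhibitor of NF-κB (1.38 ± 0.16, adjusted p = 1.38e-07), were also higher. In all, 10 of 14 inflammatory genes were higher and 2 lower, with a median of 1.23. The macrophage elastase *Mmp12* had 294 UMIs in the members, at 249, 177 and 172 CPM, and 1 UMI in all resident Mφ (adjusted p = 1.24e-06). Against *Trem2*-low Mφ, *Mmp12* was tested and not called. *Isg15*, *Ifit2* and *Ifit1* were higher, 3 of 7 interferon-stimulated genes, and lost their calls without the female library or without male library 2.

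Lysosomal and lipid genes differed in part from resident Mφ, in a test of fewer genes and UMIs than that against *Trem2*-low Mφ. *Ctsd* was at 824, 732 and 1864 CPM in resident Mφ, where male library 2 lay above the female members (1.12 ± 0.16, adjusted p = 7.96e-06). *Lgals3* was at 529, 1019 and 2167 CPM (0.90 ± 0.15, adjusted p = 5.31e-05) and *Fabp5* at 85.5, 180 and 347 CPM (1.45 ± 0.33, adjusted p = 0.00184), each overlapping between libraries. *Ctsz* (1.19 ± 0.17, adjusted p = 5.39e-06) and *Ctss* (0.93 ± 0.15, adjusted p = 3.66e-05), further cathepsins, were higher and *Ctsc* lower, at 549, 270 and 261 against 925, 480 and 737 CPM (adjusted p = 0.00184). Of 23 lysosomal genes 5 were higher and 1 lower (median 0.29). Of 12 lipid-handling genes 3 were higher and 2, *Pltp* and *Lpl*, lower. *Pltp*, the phospholipid transfer protein, was lower than in resident Mφ (-2.20 ± 0.36, adjusted p = 3.58e-05). The heavy chain of ferritin, *Fth1*, rose by 1.19 ± 0.12 (adjusted p = 1.31e-08) and *Acp5*, the tartrate-resistant acid phosphatase of osteoclasts and Mφ, by 2.34 ± 0.44 (adjusted p = 0.000278). *Tyrobp* was higher here (0.46 ± 0.14, adjusted p = 0.0234). MHC class II had 2 of 6 genes lower, *H2-Aa* and *H2-Eb1*, each against the direction of 1 library, and both lost their call with any 1 library left out.

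Members also differed among themselves. Those with a *Gpnmb* UMI numbered 15, 22 and 29, and those without 204, 24 and 40. Their median depth was 4339, 1975.5 and 1800 UMIs against 4267, 1944.5 and 1755.5. The split was not separate from the sum of *Trem2* and *Gpnmb* UMIs. At least 3 UMIs were found in 12, 14 and 20 members with *Gpnmb* and in 94, 9 and 14 without. Members with *Gpnmb* had more RNA of some lipid and lysosome genes and less of MHC class II, and the part of the sum in this was not tested. Of 565 genes tested 35 were higher (6.19%) and 30 lower (5.31%), the latter including 13 of 24 tear products. The calls rested on male library 1: without it 0 genes passed in edgeR (109 at an unadjusted p under 0.05). Without the female library there were 30 calls and without male library 2 there were 26. With total-UMI scaling the calls were 33 higher and 8 lower.

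*Fabp5* was at 790, 1504 and 1892 CPM in members with *Gpnmb* and 47.4, 287 and 672 CPM in those without, so the groups did not overlap (2.52 ± 0.23, adjusted p = 1.08e-24). *Lgals3* was at 3161, 3556 and 3501 against 951, 1855 and 2118 CPM (1.08 ± 0.14, adjusted p = 1.47e-11), and *Gdf15* at 1350, 866 and 990 against 327, 325 and 504 CPM (1.49 ± 0.22, adjusted p = 2.89e-09). *Psap* was apart as well, at 4798, 3601 and 3201 against 1945, 2142 and 2222 CPM (0.81 ± 0.14, adjusted p = 1.06e-06). *Ctsd* was called higher (0.80 ± 0.14, adjusted p = 1.58e-06) but went the other way in male library 1, at 2735 against 2926 CPM.

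The other differences within the members were smaller or rested on fewer UMIs. *Slc7a11*, the cystine importer (1.78 ± 0.37, adjusted p = 9.31e-05), and *Txnrd1*, thioredoxin reductase (1.63 ± 0.41, adjusted p = 0.00182), both of the defence against oxidants, were higher, as were the lysosomal peptidase *Tpp1* (1.61 ± 0.37, adjusted p = 0.000569) and the chemokine *Ccl2* (1.21 ± 0.28, adjusted p = 0.000618). All 4 MHC class II genes tested were lower, with *H2-Eb1* at 3074, 1869 and 1998 against 4087, 3366 and 3242 CPM (-0.72 ± 0.14, adjusted p = 2.83e-05) and *Cd74* at 6450, 4992 and 5889 against 8832, 8798 and 7647 CPM (-0.64 ± 0.13, adjusted p = 8.19e-05). The members without *Gpnmb* also differed from *Trem2*-low Mφ, by 25 genes called higher and 54 lower, in a test chosen after the data had been seen. *Ctsd*, *Fabp5*, *Igf1* and *Ctsb* kept their calls there, and *Lgals3*, *Psap* and *Gdf15* lost them.

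**Figure D5:**
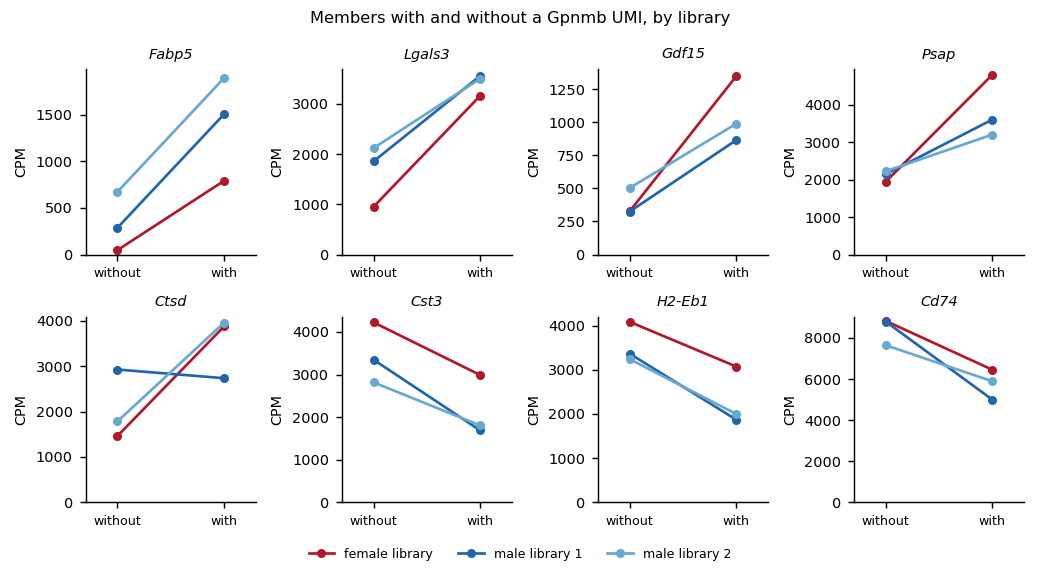
Levels (CPM, axes from 0) of 8 genes in *Trem2*-high Mφ with and without a *Gpnmb* UMI, with a line joining both groups of each of the 3 libraries. *Fabp5* and *Lgals3* are higher and *H2-Eb1* and *Cd74* lower with *Gpnmb* in every library, while *Ctsd* goes the other way in male library 1.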

How the data were processed

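The authors prepared suspensions with 10x Genomics droplets and made gene by barcode matrices with Cell Ranger 6.1.2 on mm10, per the labels' processing notes. The deposited values are UMI counts, not corrected for free RNA, and the matrices of called barcodes were used as deposited. Members and gene lists were chosen with earlier results of these data known. No cell type annotation was used here: cells were classed by UMIs of fixed genes, and no doublets were removed. Doublets were marked with scrublet in scanpy 1.11.5 (0.8% per 1000 barcodes), and cells without them were an alternative. Against *Trem2*-low Mφ that alternative called 130 genes higher and 217 lower.

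UMIs were summed per library and arm (96155 to 1019934 UMIs per library in members) and tested with edgeR 4.0.16 in R 4.3.3 (filterByExpr, TMM, glmQLFit, glmQLFTest, 2-sided) with the library as a block. Adjusted p-values are Benjamini-Hochberg over all genes tested. SE is the standard error, derived from the same test, so it also rests on a spread estimated with information shared over genes. The study tested single cells, which are not replicates. Both arms of a comparison come from the same suspension. Deviations of both arms from their group means correlated at 0.254 to 0.699 in the comparison with *Trem2*-low Mφ, 0.275 to 0.692 with resident Mφ and 0.512 to 0.857 within members. The script was tested on simulated counts.

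Named are *Ctsd* and *Lgals3*, up to 4 called genes of each list with the lowest adjusted p, and the 10 largest called changes each way with at least 30 UMIs in the higher arm and the same direction in all 3 libraries. Tear-product and mitochondrial genes were left out of the last group. Not every gene so named is printed. Uncalled genes of lists without a call are printed only for TREM2 signalling, interferon-stimulated and proliferation genes in the comparison with *Trem2*-low Mφ. *Ctsa*, *Lgmn*, *Lamp1*, *Apoe*, *Abca1* and, in that comparison, *Gdf15* were named after their values were seen. Alternatives were other scalings, DESeq2 1.42.0, no filter, no block, each library left out, and other limits on cells. Intervals and the limit of 3 counts for a count of 0 cover counting error only. Gene positions come from the GRCm38 annotation and promoters from RefSeq tables.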

Additional observations from a re-analysis of the deposited data

Results flagged for a closer look

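*Isg15*, an interferon-stimulated ubiquitin-like protein, was singled out because the female and male libraries lay on opposite sides of 0 in the comparison of *Trem2*-high with *Trem2*-low Mφ. The TMM-scaled log2 difference was 0.0039 in the female library, barely above 0, and -0.53 and -0.13 in male libraries 1 and 2. In CPM, members were higher in the female library (659 against 558) and in male library 2 (634 against 419). They were lower in male library 1 (468 against 507), so male library 2 lay below 0 only after TMM scaling. The gene was not called, the difference between the sexes was not tested, and there was 1 female library.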

How the results depend on the processing

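The threshold of 2 UMIs set the size of the group: with at least 3 UMIs of *Trem2* and *Gpnmb* there were 163 members in place of 334. Genes called against *Trem2*-low Mφ were 316, and 127 with the DESeq2 test, 166 with no filter on low counts, 137 in cells of 2000 to 10000 UMIs, 79 for members without *Gpnmb*, 120 with free RNA subtracted, and 56 to 199 with 1 library left out. Against resident Mφ they were 142, and 72 with the DESeq2 test, 51 in cells of 2000 to 10000 UMIs and 36 to 154 with 1 library left out. Within members they were 65, and 41 with total-UMI scaling, 24 with the DESeq2 test, 11 with no filter, 38 in cells of 2000 to 10000 UMIs, 31 with at least 3 UMIs of *Trem2* and *Gpnmb*, 34 with free RNA subtracted, and 0 to 30 with 1 library left out. Fewer members or genes tested go with several of these settings, and the cause of the other changes was not tested.

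Without the replicate block 0 genes were called against *Trem2*-low Mφ, 44 against resident Mφ and 0 within members (43 at an unadjusted p under 0.05) in edgeR. Apart from that setting, 20 of 72 named genes called against *Trem2*-low Mφ, 18 of 59 against resident Mφ and 0 of 37 within members kept their call in every setting in which they could be tested. The first group included *Ctsd*, *Fabp5*, *Igf1*, *Ctsb*, *Syngr1*, *Il1b*, *Lrp1*, *Apoc2*, *Grn* and *Cd36*.

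Some uncalled genes changed sign against *Trem2*-low Mφ: *Ifit2* to 0.051, *Isg15* to 0.26 and *Malt1* to 0.28 with total-UMI scaling, *Malt1* to 0.029 in cells of 2000 to 10000 UMIs and *Tubb5* to -0.013 with no filter. With 1 library left out, *Malt1* ranged from -0.23 to 0.018 and *Tubb5* from -0.21 to 0.35. Against resident Mφ with no filter, the called genes *Esp15*, *H2-Aa* and *H2-Eb1* turned to 0.060, 0.17 and 0.22, where the median of all genes moved by 0.49.

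Depth limits the rarest genes: male library 1 held 46 members with 96155 UMIs, and the smallest arm, resident Mφ of male library 2, 15 cells with 23074 UMIs.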

Other observations

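Cells that met both the *Trem2* and the resident limit numbered 11, 4 and 2 (female, male 1, male 2). *Ctsd* was at 2494 to 4149 CPM in them and *Pf4*, a resident Mφ chemokine, at 1047 to 1936 CPM, against 40.2 to 83.2 CPM of *Pf4* in *Trem2*-high Mφ. *Lyz2*, the lysozyme of myeloid cells, was at 2162 to 2829 CPM in *Trem2*-high Mφ, 577 to 842 CPM in *Trem2*-low Mφ and 4377 to 7401 CPM in resident Mφ. Both genes were part of the rule, so these are descriptions.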
